A study of Mus musculus with 2 samples.

Results

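The cells described here were gated as neutrophils, come from tumour-bearing mouse lungs and carry transcripts of Ccl3, Hcar2 or Chil1 and few transcripts of secondary granule genes. They were chosen barcode by barcode on raw unique molecular identifiers (UMIs, each a counted transcript molecule). Barcodes needed 500 or more genes and no more than 10% mitochondrial UMIs, and a member had at least 10 UMIs of S100a8 plus S100a9, at least 1 of Csf3r, 0 of Cd3d, Cd3e, Cd3g and Cd79a, at most 2 of Ngp, Camp and Retnlg together, and at least 2 of Ccl3, Hcar2 and Chil1 together. Of 25454 kept barcodes, 603 were members: 288 in the LYZKL library and 315 in the WTKL library. The levels of these genes chose the cells and are given below as a description.

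The study compared lung immune cells of bone marrow chimeras, with 1 single-cell RNA library per group. The hosts of both groups were lethally irradiated KL mice, which carry Lkb1 fl/fl and develop lung tumours after intranasal Ad-Cre, an adenovirus carrying Cre recombinase. LYZKL hosts received Tmem173 fl/fl;Lyz2-Cre marrow, in which Cre under the Lyz2 promoter acts on floxed Tmem173, the gene of the DNA-sensing adaptor STING, in macrophages, monocytes and neutrophils. WTKL hosts received Tmem173 fl/fl marrow without Cre, so both groups carried the floxed allele. Cells were taken 8 weeks after Ad-Cre, and a tamoxifen treatment is named for the WTKL library and not for the LYZKL library. The labels call both libraries T cells from a CD4 and CD8 sort, so the neutrophils described here lie outside the labelled cell type, and how many were carried through the sort can set every share below.

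Neutrophils enter tumours from the blood and change there: they can lose granule transcripts, make chemokines and interleukin 1, and express molecules such as PD-L1 that restrain T cells. CCL3 and CCL4 are chemokines that recruit monocytes and lymphocytes. HCAR2 is a receptor for the ketone body beta-hydroxybutyrate and for niacin, CHIL1 is a secreted chitinase-like protein, and IL1RN is the interleukin 1 receptor antagonist.

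The libraries held 13607 barcodes in LYZKL and 12204 in WTKL, against the 7202 and 6609 cells that the protocol states, with 93584629 and 77181312 UMIs in all. The filter kept 13451 LYZKL and 12003 WTKL barcodes. The libraries shared 100 barcode sequences, among them 0 of the LYZKL members and 4 of the WTKL members. Members had a median of 3580.5 UMIs in LYZKL and 3241 in WTKL, and their summed UMIs came to 1473346 and 1262808. Levels are given in CPM, counts per 1000000 of these sums, and intervals on levels and ratios are exact 95% intervals of the counts. With 1 library per group there is no replicate check, so no p-value is given. The intervals cover counting error only and say nothing of the spread between mice. Those on levels and gene ratios also leave out the spread between barcodes.

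Summed over each library, the members carried neutrophil transcripts beyond the genes of the rule. The 16 measured genes of a neutrophil list that the rule did not use summed to 11226 CPM in LYZKL members and 15699 CPM in WTKL members. In B cells of the same libraries they summed to 2286 and 1386 CPM. The contrast with B cells does not part neutrophils from monocytes or macrophages. Some single members held few of them, such as 3 of 3365 UMIs in a LYZKL member and 2 of 3808 in a WTKL member. Clec4d and Clec4e, C-type lectin receptors of neutrophils and monocytes, Lcn2 (lipocalin 2) and the interleukin 1 decoy receptor Il1r2 were among the listed genes detected. Ly6g, which defines mature mouse neutrophils in flow cytometry, had only 3 UMIs in LYZKL members and 4 in WTKL members. B, NK and mast cell or basophil lists stayed between 3.39 and 19.8 CPM in either library, epithelial, stromal and erythrocyte lists between 10.2 and 42.0 CPM, the T cell list at 168 CPM in LYZKL and 204 CPM in WTKL, the plasma cell list at 193 and 393 CPM and the eosinophil list at 37.3 and 77.6 CPM.

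Some member barcodes also held macrophage transcripts, and more of them in LYZKL. A list of 15 macrophage or monocyte genes summed to 1296 CPM in LYZKL members and 923 CPM in WTKL members; Marco was at 0 in both and Siglec1 at 0 in WTKL. Barcodes with 3 or more UMIs of this list made up 79 of 288 LYZKL members (27.4%) and 58 of 315 WTKL members (18.4%), a ratio of 1.49 with an interval of 1.10 to 2.01. They were deeper than the other members, with medians of 6456 UMIs in LYZKL and 4114.5 in WTKL, and held 52.6% of the LYZKL and 34.8% of the WTKL member UMIs. The cut is a raw count, which a deeper barcode reaches more readily, and LYZKL members had the higher median depth. A share at equal depth was not computed. In the barcodes with 3 or more UMIs of the list Saa3 reached 20364 CPM in LYZKL and 10432 CPM in WTKL, and Nos2 1289 and 1014 CPM. Apoe was 705 and 516 CPM there, but it is itself a gene of the list, so this level follows in part from the cut. The dendritic cell list, mostly MHC class II transcripts, summed to 6831 CPM in LYZKL members and 4657 CPM in WTKL members, and to 345 and 332 CPM in the members with at most 2 macrophage-list UMIs. The main comparisons below are therefore also given for these 209 LYZKL and 257 WTKL members. The neutrophil list stood at 15481 CPM in LYZKL and 19314 CPM in WTKL in them. In the LYZKL members with 3 or more macrophage-list UMIs it was 7383 CPM. The macrophage list stood at 255 and 241 CPM in the members with at most 2, a level held down by the limit of 2 UMIs itself. In granule-gene neutrophils, to which no such limit was applied, it was 251 and 271 CPM. This restriction was added after seeing the data.

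**Figure D1:**
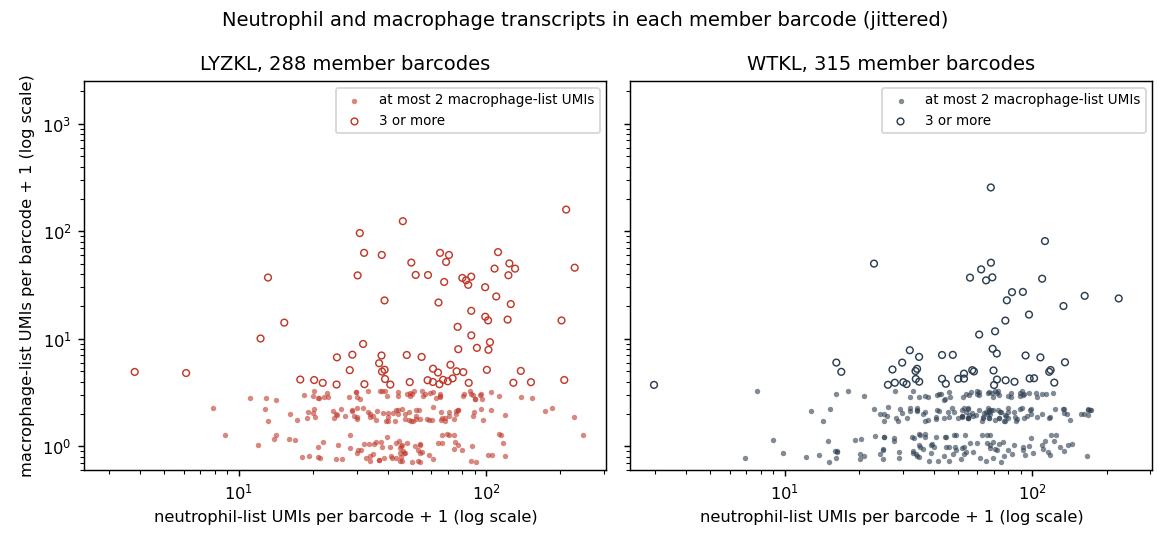
UMIs of the 16-gene neutrophil list (x axis) and the 15-gene macrophage or monocyte list (y axis) in each member barcode, plus 1, on log scales, for LYZKL (left) and WTKL (right). Filled points have at most 2 macrophage-list UMIs (209 in LYZKL, 257 in WTKL), and open points have 3 or more (79 and 58).

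Members were a smaller share of barcodes in LYZKL than in WTKL under the rule as written. This direction depended on the conditions of the rule, that on Csf3r among them. They made up 2.14% of kept barcodes in LYZKL (1.90 to 2.40%) and 2.62% in WTKL (2.35 to 2.93%), a ratio of 0.816 (0.697 to 0.955). Among all barcodes that met the S100, Csf3r, Cd3 and Cd79a conditions, they were 33.1% of 869 in LYZKL and 41.0% of 768 in WTKL. Granule-gene neutrophils, with 3 or more UMIs of Ngp, Camp and Retnlg, took 59.6% in LYZKL and 46.1% in WTKL, and the remaining neutrophils, with fewer than 2 UMIs of the Ccl3, Hcar2 and Chil1 set, 7.25% and 12.9%. Csf3r, the receptor for G-CSF, was the only condition failed by 325 LYZKL barcodes and 103 WTKL barcodes. Without that condition the members' share of kept barcodes turned round, at a ratio of 1.31, and their share of gated neutrophils had a ratio of 1.04. The barcodes that failed on Csf3r alone held 2072 CPM of the macrophage list in LYZKL and 1775 CPM in WTKL, and 7758 and 8456 CPM of the neutrophil list. The S100 limit was the only condition failed by 251 LYZKL and 153 WTKL barcodes. For the limit on Ngp, Camp and Retnlg these numbers were 411 and 288. Shares without either of these limits were not computed. The part of the sort in the shares given was not tested.

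Members more often had transcripts of all 3 selecting genes in LYZKL than in WTKL. A Ccl3 UMI was present in 87.5% of LYZKL members and 74.3% of WTKL members, a Hcar2 UMI in 84.0% and 77.5%, and a Chil1 UMI in 50.3% and 34.6%. All 3 were seen together in 39.2% of LYZKL members (33.6 to 45.1%) and 22.2% of WTKL members (17.8 to 27.2%). After every barcode was thinned to 1000 UMIs, which left out 1 LYZKL member, Ccl3 was seen in 73.5% of LYZKL and 61.9% of WTKL members, against 4.31% and 2.65% of B cells, which should lack it. Because Ccl3 helped choose the members, their distance from B cells follows in part from the rule. All these shares are a description. Barcodes at the edge of the rule, with exactly 2 UMIs of the selecting genes, numbered 20 in LYZKL and 41 in WTKL and held 84.9 and 451 CPM of Il1rn. Those just outside, with 1 UMI, numbered 26 and 40 and held 178 and 116 CPM.

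In the files, whose build is mm10 (GRCm38), these genes carry the identifiers ENSMUSG00000000982 (Ccl3), ENSMUSG00000045502 (Hcar2), ENSMUSG00000064246 (Chil1) and ENSMUSG00000026981 (Il1rn), and all are protein-coding. In the GENCODE M21 annotation of GRCm38, Ccl3 lies at chromosome 11, positions 83647844 to 83649355, beside Ccl4 at 83662584 to 83664683. Hcar2 lies at chromosome 5, positions 123863570 to 123865499, Chil1 at chromosome 1, positions 134182176 to 134190181, and Il1rn at chromosome 2, positions 24336853 to 24351494.

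Between the libraries, most compared chemokine and interferon-response genes were higher in LYZKL members, and G0s2, Ptgs2, Mmp9, Il1r2, Cxcr2 and Il1b were lower. Ccl4 was 3557 CPM in LYZKL and 2013 CPM in WTKL, and Cd274, which encodes PD-L1, was 1218 and 912 CPM. G0s2, an inhibitor of the lipase that breaks down stored fat, was 448 CPM in LYZKL and 2962 CPM in WTKL, and Ptgs2, the prostaglandin synthase COX-2, was 223 and 822 CPM. The directions of these 4 genes were the same in the members with at most 2 macrophage-list UMIs. Of 5139 genes with at least 20 CPM on average, 519 (10.1%) were at least 1.5-fold higher and 533 (10.4%) at least 1.5-fold lower in LYZKL, with a median log2 ratio of 0.041 over all of them. With TMM scaling the split was 390 higher and 646 lower. Among the members with at most 2 macrophage-list UMIs, 722 of 4925 genes (14.7%) were that much higher and 526 (10.7%) lower, with a median log2 ratio of 0.079. By direction alone, 2735 of the 5139 genes were higher and 2404 lower over all members. Under the restriction 2790 of the 4925 genes were higher and 2135 lower. The list counts below are to be read beside these counts and shares.

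Ccl3 itself was 4250 CPM in LYZKL members and 3560 CPM in WTKL members. Per barcode, Ccl3 ran from 0 UMIs over a median of 11 to 187 in LYZKL, and from 0 over a median of 5 to 191 in WTKL. The log2 ratio was 0.26 (0.20 to 0.31), and 0.52 in the members with at most 2 macrophage-list UMIs, so the difference stayed under 1.5-fold in both. Hcar2 was 1231 CPM in LYZKL and 1177 CPM in WTKL, with a median of 3 UMIs per barcode in both, and its log2 ratio of 0.07 had an interval from -0.03 to 0.17. In the members with at most 2 macrophage-list UMIs Hcar2 was 1895 CPM in LYZKL and 1411 CPM in WTKL, a log2 ratio of 0.43. Chil1 was 402 CPM in LYZKL and 293 CPM in WTKL, a log2 ratio of 0.46 (0.27 to 0.65), and 575 and 382 CPM in the restricted set, a log2 ratio of 0.59 that just passed 1.5-fold. Il1rn was 707 CPM in LYZKL and 820 CPM in WTKL, with medians of 1 and 2 UMIs per barcode. Its log2 ratio was -0.21 over all members and 0.10 in those with at most 2 macrophage-list UMIs, so no direction held for Il1rn.

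**Figure D2:**
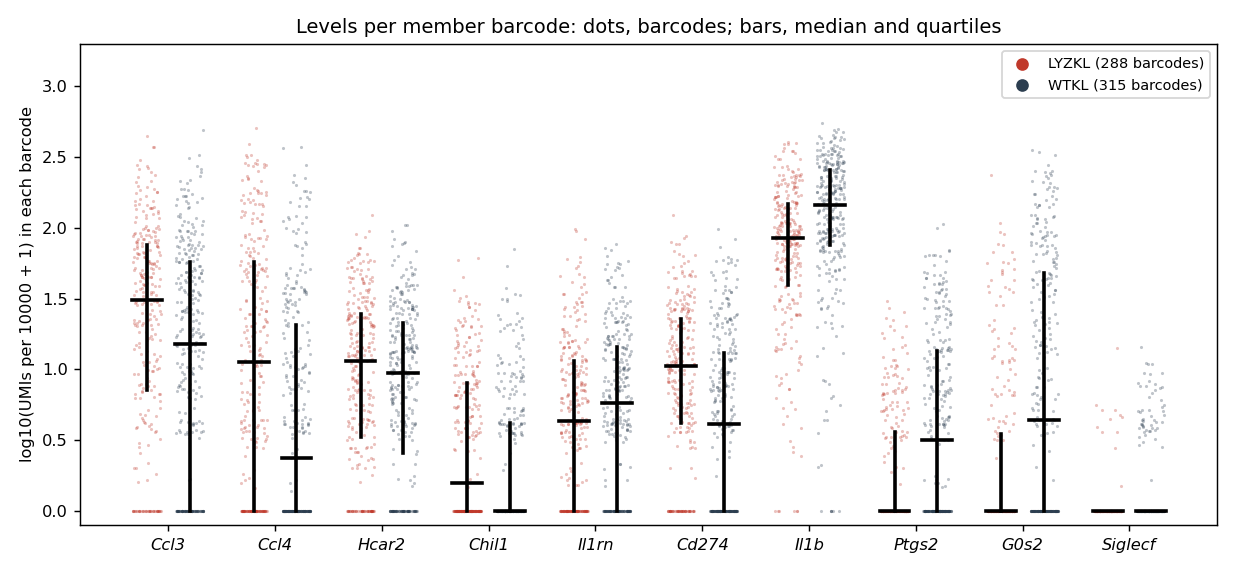
Level of 10 genes in each member barcode, as log10 of UMIs per 10000 plus 1, with LYZKL (288 barcodes) left of WTKL (315 barcodes) for each gene; thick bars mark quartiles and cross bars medians. Ccl3, Ccl4 and Cd274 medians were higher in LYZKL, and Il1b, Ptgs2 and G0s2 medians were higher in WTKL, while the barcodes of both libraries overlapped for every gene.

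Chemokines were the list with the highest median. Of 17 chemokine genes 13 were compared: 11 were higher in LYZKL, 7 of them at least 1.5-fold, and the median log2 ratio was 0.82. The summed level of the list did not share this direction: it was 32573 CPM in LYZKL and 36975 CPM in WTKL, most of it Cxcl2, and 45099 and 44950 CPM in the members with at most 2 macrophage-list UMIs. Ccl4 had a median of 4 UMIs per barcode in LYZKL and 1 in WTKL and a highest value of 231 and 171. Its log2 ratio was 0.82 (0.75 to 0.89) over all members and 1.37 (1.29 to 1.45) in those with at most 2 macrophage-list UMIs, where Ccl4 stood at 5927 CPM in LYZKL and 2299 CPM in WTKL. After thinning, Ccl4 was seen in 55.4% of LYZKL and 37.1% of WTKL members, against 5.85% and 3.31% of B cells. Ccl2, which recruits monocytes, was 299 CPM in LYZKL and 153 CPM in WTKL, and its log2 ratio of 0.97 became 1.30 under the same restriction. Few barcodes held most of the Ccl2: the top 10 had 63.0% of its UMIs in LYZKL and 88.6% in WTKL. Cxcl10, an interferon-induced T cell chemokine chosen after its values were seen, was 1621 CPM in LYZKL and 1174 CPM in WTKL over all members, and 2223 and 1059 CPM in the restricted set.

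Ccl5 and Cxcl1 were higher in LYZKL over all members and not in the members with few macrophage transcripts. Ccl5 was 1210 CPM in LYZKL and 515 CPM in WTKL, but 199 and 213 CPM in the members with at most 2 macrophage-list UMIs, where its log2 ratio was -0.10 (-0.43 to 0.23); the part of these transcripts in the chemokine ratios was not tested. Cxcl1, a ligand of CXCR2, was 170 CPM in LYZKL and 62.6 CPM in WTKL over all members, and 54.4 and 75.4 CPM in the restricted set. Over all members, 10 barcodes held 92.0% of the Cxcl1 UMIs in LYZKL and 100% in WTKL. Cxcl2, the other main CXCR2 ligand of neutrophils and the most abundant chemokine here, went the other way from Ccl4: it was 19433 CPM in LYZKL and 27912 CPM in WTKL, a log2 ratio of -0.52. In the restricted set 6 of 10 compared chemokines were higher in LYZKL, 5 of them at least 1.5-fold, 1 of the 4 lower ones passed 1.5-fold and the median was 0.80.

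The interleukin 1 list had no common direction, with 7 of 13 compared genes higher in LYZKL and 6 lower, of which 1 and 5 passed 1.5-fold, and a median of 0.14; in the restricted set 2 each of 12 passed 1.5-fold and the median was 0.20. Il1b was present in nearly all members and was 8138 CPM in LYZKL and 14129 CPM in WTKL, with medians of 33 and 47 UMIs per barcode. Its log2 ratio was -0.80 (-0.83 to -0.76), and -0.59 in the members with at most 2 macrophage-list UMIs. Il1r2 was 628 CPM in LYZKL and 1805 CPM in WTKL, with medians of 2 and 5 UMIs and log2 ratios of -1.52 and -1.11 in the full and restricted sets. Il1rap, the shared accessory chain of the interleukin 1 receptor, had log2 ratios of -0.89 and -0.44. Il1a, chosen after its values were seen, was 1404 CPM in LYZKL and 1191 CPM in WTKL, a log2 ratio of 0.24, so the 2 interleukin 1 ligands differed in direction.

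G0s2 had the lowest ratio among the named genes with at least 100 UMIs over both libraries, and most LYZKL members had none. A G0s2 UMI was seen in 78 of 288 LYZKL members (27.1%) and 174 of 315 WTKL members (55.2%), and after thinning in 19.9% and 45.7%, against 0.308% and 1.77% of B cells. The upper quartile was 1 UMI in LYZKL and 16 in WTKL. Its log2 ratio was -2.73 (-2.85 to -2.61), and -2.34 with levels of 810 and 4113 CPM in the members with at most 2 macrophage-list UMIs. In granule-gene neutrophils of the same libraries the log2 ratio of G0s2 was -0.99, and in the remaining neutrophils it was -3.09. Ptgs2 had a highest value of 46 UMIs in LYZKL and 30 in WTKL, a log2 ratio of -1.88 (-2.06 to -1.70) over all members, -2.00 in the restricted set, and -1.15 in granule-gene neutrophils. Both genes were lower in LYZKL in each class of neutrophil.

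Because these 2 genes were lower in LYZKL in every class of neutrophil, the 250 bases before their starts are shown from RefSeq on GRCm38.p6, 5′ to 3′ on the gene's strand. Of 7 genes looked for in the promoter table (Ccl3, Hcar2, Chil1, Ccl4, G0s2, Ptgs2 and Cd274) 5 had an entry. The G0s2 window is chr1:193273189-193273438 on the minus strand, and the Ptgs2 window is chr1:150099781-150100030 on the plus strand. Capitals mark a match to the C/EBP motif TTGCNNAA.
G0s2: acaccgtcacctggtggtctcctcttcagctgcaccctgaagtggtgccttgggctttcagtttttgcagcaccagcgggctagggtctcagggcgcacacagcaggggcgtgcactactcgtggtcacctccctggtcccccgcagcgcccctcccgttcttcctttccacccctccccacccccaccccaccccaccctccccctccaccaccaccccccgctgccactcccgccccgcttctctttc
Ptgs2: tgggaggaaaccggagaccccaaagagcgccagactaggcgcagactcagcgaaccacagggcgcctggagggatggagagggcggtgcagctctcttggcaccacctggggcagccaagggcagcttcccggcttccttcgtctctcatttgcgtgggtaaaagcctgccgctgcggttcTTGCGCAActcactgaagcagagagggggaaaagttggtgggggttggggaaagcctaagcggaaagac
The windows were searched on both strands for C/EBP (TTGCNNAA), a TATA box (TATAAA) and a hypoxia element (ACGTG). The only match was the C/EBP one, 69 bases before the start of Ptgs2, and G0s2 held none of these letters. Among 27025 mouse promoter windows of the same length, 9.55% held the C/EBP letters, 12.97% the TATA and 16.6% the hypoxia letters. A match is a description of the letters, not of a bound site.

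Further genes of mature and tumour neutrophils were lower in LYZKL members beside G0s2. Mmp9, the gelatinase of tertiary granules, was 93.0 CPM in LYZKL and 497 CPM in WTKL, a log2 ratio of -2.42 that was -1.89 in the members with at most 2 macrophage-list UMIs and -0.21 in granule-gene neutrophils. Siglecf, a lectin of eosinophils that also marks a tumour-promoting neutrophil state in mouse lung, had 16 UMIs in 12 LYZKL barcodes and 81 UMIs in 54 WTKL barcodes. Its log2 ratio was -2.56 (-3.44 to -1.78), and -2.13 in the restricted set. Of the 8-gene eosinophil list, which includes Siglecf and held 55 UMIs in LYZKL and 98 in WTKL, Prg2, Il5ra and Epx were at 0 in the members of both libraries, Ccr3 was at 0 in LYZKL only and Ear1 at 0 in WTKL only. Nt5e, the enzyme CD73 that makes adenosine, was 13.6 CPM in LYZKL and 70.5 CPM in WTKL, log2 ratios of -2.38 and -2.25. Hbegf, an EGF receptor ligand, and Spp1 (osteopontin) had log2 ratios of -2.61 and -2.27, but each rested on few cells. The 10 barcodes with the most Spp1 held 77.3% of its UMIs in LYZKL and 82.5% in WTKL, and for Hbegf these shares were 77.3% and 70.4%. Gsn (gelsolin, an actin-severing protein), Cpeb2 (an RNA-binding protein), Tex14 and H2-Q10 had log2 ratios from -2.02 to -1.67, and from -2.40 to -1.54 in the restricted set.

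The tumour neutrophil and suppressive list had no common direction: 24 of 43 compared genes were higher, 12 of them at least 1.5-fold, and 19 were lower, 13 of them at least 1.5-fold, with a median of 0.06. In the restricted set 7 and 9 of 41 passed 1.5-fold and the median was 0.095. Cd274 was its member of most interest to T cells: it had medians of 4 UMIs per barcode in LYZKL and 1 in WTKL and was seen in 58.2% and 38.7% of thinned members, against 10.8% and 5.30% of B cells. The log2 ratio of Cd274 was 0.42 (0.31 to 0.52), and 0.74 in the members with at most 2 macrophage-list UMIs. Arg2, a mitochondrial arginase, was 330 CPM in LYZKL and 348 CPM in WTKL, with an interval of the log2 ratio from -0.27 to 0.11, and 519 and 425 CPM in the restricted set. Nos2, the inducible nitric oxide synthase, was 766 CPM in LYZKL and 436 CPM in WTKL, and 187 and 128 CPM in the restricted set, and its log2 ratio of 0.81 was -0.010 after thinning to 1000 UMIs. Xbp1, a transcription factor of the unfolded protein response, was lower, with log2 ratios of -1.37 and -1.30 in the full and restricted sets.

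**Figure D3:**
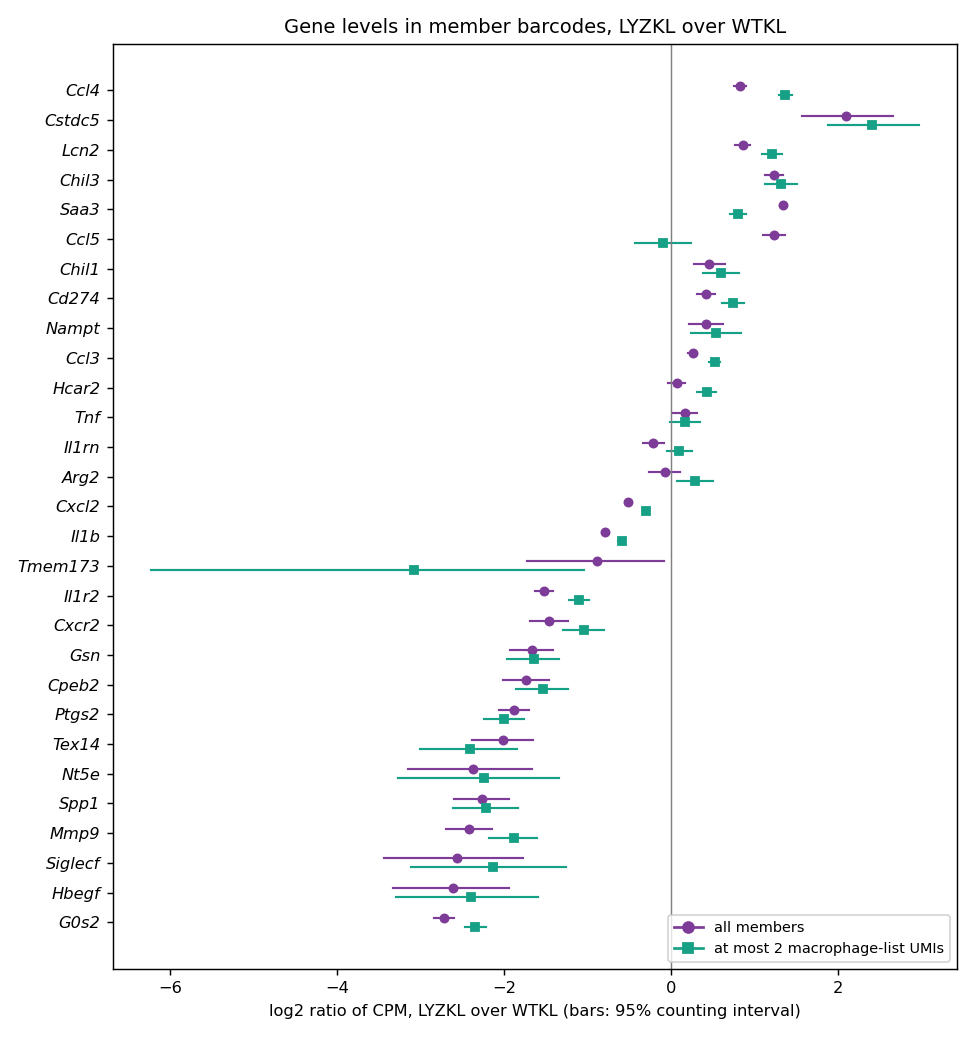
Log2 ratio of CPM, LYZKL over WTKL, for 29 genes over all members (purple circles) and over members with at most 2 macrophage-list UMIs (green squares), with 95% counting intervals. G0s2, Mmp9, Ptgs2 and Siglecf lie below -1.8 in both sets, Ccl4 and Lcn2 above 0.8 in both, and Ccl5 falls to -0.10 in the restricted set.

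Receptors for chemoattractants and metabolites leaned lower in LYZKL over all members and less so in the restricted set. Of 19 compared receptor genes 11 were lower, 9 of them at least 1.5-fold, 8 were higher and 0 of these passed 1.5-fold, with a median of -0.54, which was 0.058 with no minimum level and -0.00621 without barcodes holding a T cell receptor constant UMI. In the restricted set 9 of 17 were lower and 8 higher, 5 and 2 of them past 1.5-fold, with a median of -0.34. The receptor median was -0.03 in granule-gene neutrophils and -0.32 in the remaining neutrophils. Cxcr2, the receptor that draws neutrophils out of the marrow, was 153 CPM in LYZKL and 420 CPM in WTKL, log2 ratios of -1.46 (-1.69 to -1.23) and -1.05 in the restricted set, and -0.03 in granule-gene neutrophils. Ffar2, a receptor for short-chain fatty acids, and Gpr35 had log2 ratios of -1.31 and -1.43, and -0.84 and -1.17 in the restricted set. Cxcr4, which marks aged neutrophils, was 158 CPM in LYZKL and 268 CPM in WTKL, and 232 and 310 CPM in the restricted set. Colony-stimulating factor and STAT genes were also mostly lower, 17 of 22 with 6 at least 1.5-fold and a median of -0.34, and in the restricted set 16 of 22 with 4 lower and 2 higher past 1.5-fold and a median of -0.24; Csf3r was 474 CPM in LYZKL and 850 CPM in WTKL, and Cebpd, a C/EBP transcription factor of the myeloid line, had log2 ratios of -1.55 and -1.21 in the full and restricted sets. Csf3r was used to choose the cells, so its ratio is a description. Colony-stimulating factor and STAT genes had medians of -0.06 in granule-gene neutrophils and -0.24 in the remaining neutrophils. In maturation, adhesion and Fc receptor genes 16 of 22 were lower, with a median of -0.21. Of the 22 genes 2 were at least 1.5-fold lower, against 10.4% of all compared genes. In the restricted set 13 of 21 were lower, with a median of -0.073. Fcgr2b, the inhibitory Fc receptor, was higher at 723 CPM in LYZKL and 469 CPM in WTKL, and 486 and 369 CPM in the restricted set.

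Interferon-response genes were higher in LYZKL members, and more so without the macrophage transcripts. Of 33 compared interferon gamma response genes 31 were higher, 6 of them at least 1.5-fold, with a median of 0.43. In the members with at most 2 macrophage-list UMIs 27 of 31 were higher, 22 at least 1.5-fold, with a median of 0.73, while the median over all genes there was 0.079. Psmb8, an immunoproteasome subunit, was 491 CPM in LYZKL and 305 CPM in WTKL, a log2 ratio of 0.69, and 0.99 in the restricted set. Gbp2, an interferon-induced GTPase chosen after its values were seen, was 1196 CPM in LYZKL and 949 CPM in WTKL, and 1579 and 918 CPM in the restricted set. Cd74, the MHC class II chaperone, was 3139 CPM in LYZKL and 1912 CPM in WTKL, but 230 and 194 CPM in the restricted set.

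Type I interferon genes were split over all members and leaned higher in the restricted set. Of 33 compared genes 21 were higher and 12 lower, with 4 and 1 past 1.5-fold and a median of 0.20, and in the restricted set 24 of 32 were higher, 16 past 1.5-fold, and 0 of 8 lower ones passed it, with a median of 0.56. The summed level of the list was 8055 CPM in LYZKL and 9081 CPM in WTKL over all members, and 10586 and 9910 CPM in the restricted set. Stat2, which carries the type I interferon signal to the nucleus, was 143 CPM in LYZKL and 75.2 CPM in WTKL, log2 ratios of 0.92 and 1.31. Isg15, a ubiquitin-like interferon-induced protein, was 616 CPM in LYZKL and 444 CPM in WTKL, with medians of 1 and 0 UMIs per barcode and log2 ratios of 0.47 and 1.01. Rtp4 and Parp9 had log2 ratios of 0.65 and 0.85, and 1.07 and 1.58 in the restricted set. Ifitm1 was the exception of size, at 1204 CPM in LYZKL and 2195 CPM in WTKL, a log2 ratio of -0.87, which was -0.43 in the restricted set and 0.28 after thinning to 1000 UMIs. In granule-gene neutrophils the medians of the interferon gamma and type I lists were -0.01 and -0.12, and in the remaining neutrophils 0.39 and 0.28; the difference from the members was not tested.

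Cytosolic DNA sensing genes had 12 of 16 higher in LYZKL, with a median of 0.39. Only 1 of the 16 was at least 1.5-fold higher, against 10.1% of all compared genes. In the restricted set the median was 0.66, and 7 of 12 were at least 1.5-fold higher, against 14.7% of all genes there. Zbp1, a sensor of Z-form nucleic acids, was 217 CPM in LYZKL and 159 CPM in WTKL, and Ifnar2, a chain of the type I interferon receptor, was 297 and 194 CPM. Tmem173 was sparse: 22 UMIs in LYZKL members, or 14.9 CPM, and 35 in WTKL members, or 27.7 CPM, a log2 ratio of -0.89 (-1.73 to -0.08). In the restricted set Tmem173 stood at 2.86 CPM in LYZKL and 24.3 CPM in WTKL. Reads from the 3′ end do not show whether the floxed exons were removed, so this does not check the deletion. Lyz2, whose promoter drives Cre, was 2189 CPM in LYZKL and 1893 CPM in WTKL, and 260 and 243 CPM in the restricted set.

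NAD metabolism and nucleotide enzymes had 6 of 9 compared genes higher, 2 of them at least 1.5-fold, and a median of 0.26. Cd38, the NAD-consuming ectoenzyme named in the study's title, was 173 CPM in LYZKL and 110 CPM in WTKL over all members, a log2 ratio of 0.65 (0.35 to 0.96). In the members with at most 2 macrophage-list UMIs Cd38 was 54.4 CPM in LYZKL and 53.5 CPM in WTKL, a log2 ratio of 0.02 (-0.64 to 0.68). In the members with 3 or more it was 280 and 216 CPM. Nampt, which makes the NAD precursor NMN, was 343 CPM in LYZKL and 258 CPM in WTKL, log2 ratios of 0.41 and 0.53 in the full and restricted sets. Entpd1, the ATP-degrading enzyme CD39, was lower, with log2 ratios of -0.50 and -0.23.

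**Figure D4:**
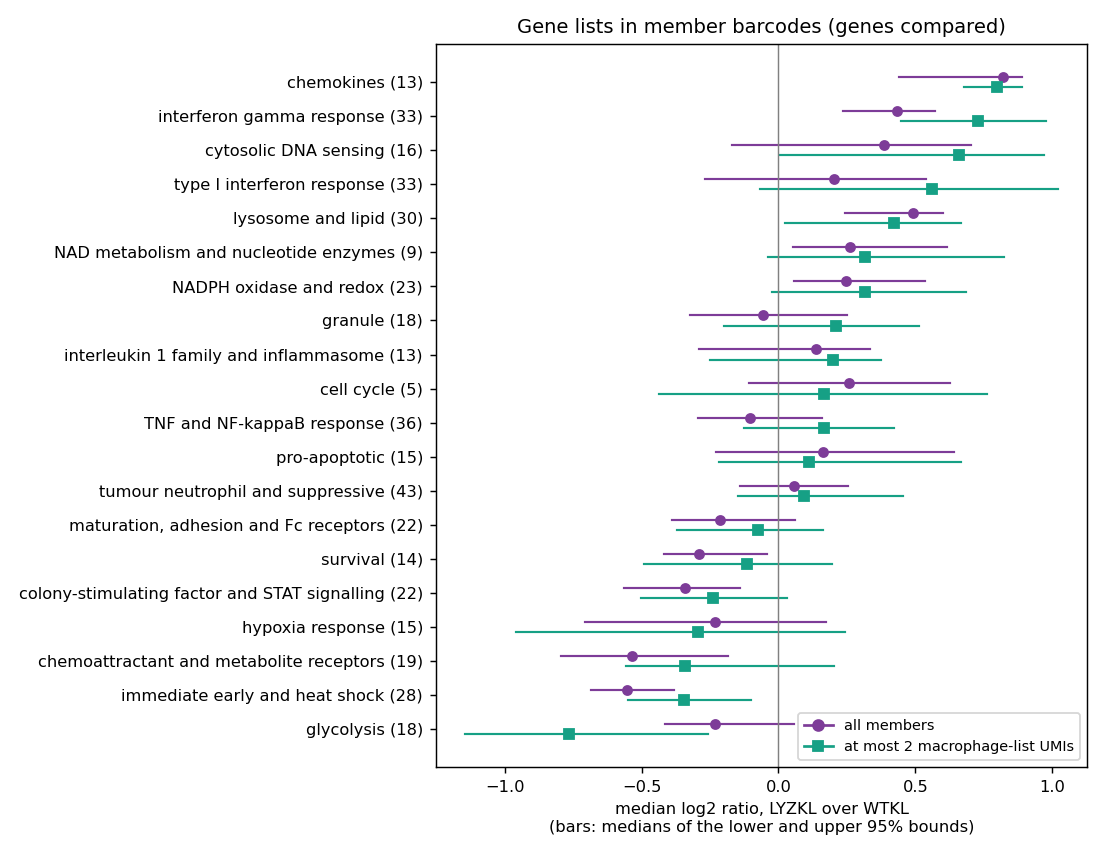
Median log2 ratio, LYZKL over WTKL, of the compared genes in each of 20 lists, over all members (purple circles) and over members with at most 2 macrophage-list UMIs (green squares); bars join the medians of the genes' lower and upper 95% bounds and numbers in brackets count the genes compared over all members. Chemokine medians were 0.82 and 0.80 and interferon gamma response medians 0.43 and 0.73, while glycolysis medians were -0.23 and -0.76.

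Glycolysis genes were lower in LYZKL members, and the difference was larger without the macrophage transcripts. Of 18 compared genes 15 were lower, 4 of them at least 1.5-fold, and in the restricted set 18 of 19 were lower, 10 at least 1.5-fold, with medians of -0.23 and -0.76. Slc2a1, the glucose transporter GLUT1, was 168 CPM in LYZKL and 288 CPM in WTKL, log2 ratios of -0.78 and -0.84. Hk2, which phosphorylates glucose, had log2 ratios of -0.80 and -1.12, Pfkp, a phosphofructokinase, -0.66 and -1.62, and Slc16a3, a lactate exporter, -0.55 and -0.96. Gapdh, chosen after its values were seen, was 1142 CPM in LYZKL and 1408 CPM in WTKL, and 811 and 1422 CPM in the restricted set. In granule-gene neutrophils the median of this list was -0.03, and in the remaining neutrophils it was -0.17. Hypoxia response genes were mixed, with 9 of 15 lower, 4 at least 1.5-fold, and a median of -0.23, and in the restricted set 9 of 15 lower, 5 at least 1.5-fold, and a median of -0.29; Egln3, an oxygen-sensing hydroxylase, had a log2 ratio of -1.73, while Hilpda, a lipid droplet protein, was 375 CPM in LYZKL and 257 CPM in WTKL.

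Immediate early and heat shock genes, which respond within minutes to stimulation or to tissue handling, were lower in LYZKL: 22 of 28, with 10 at least 1.5-fold and a median of -0.55, which was -0.34 in the restricted set. Egr1 was 301 CPM in LYZKL and 866 CPM in WTKL, log2 ratios of -1.53 and -1.22. Btg2, an antiproliferative gene, and Junb had log2 ratios of -1.30 and -0.98. The medians of this list were -0.27 in granule-gene neutrophils and -0.33 in the remaining neutrophils, so the direction was shared by all 3 classes. It was also seen outside the neutrophils: in B cells the list summed to 13711 CPM in LYZKL and 16768 CPM in WTKL, against 18877 and 29313 CPM in members. TNF and NF-kappaB response genes had 21 of 36 lower and 15 higher, 6 and 2 of them past 1.5-fold, with medians of -0.10 and 0.16 in the full and restricted sets. Tnf was 590 CPM in LYZKL and 528 CPM in WTKL, a log2 ratio of 0.16 with an interval from 0.01 to 0.31, and Dusp2, a nuclear MAP kinase phosphatase, had a log2 ratio of -1.26.

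Survival genes had 9 of 14 lower in LYZKL, 4 of them at least 1.5-fold, and a median of -0.29, but in the members with at most 2 macrophage-list UMIs 1 of 14 was at least 1.5-fold lower and the median was -0.11. Bcl2l1, which encodes BCL-XL, was 136 CPM in LYZKL and 225 CPM in WTKL, and 215 and 281 CPM in the restricted set. Pim1, a survival kinase, was 1404 CPM in LYZKL and 2432 CPM in WTKL, and 1970 and 3009 CPM in the restricted set. Pro-apoptotic genes had 10 of 15 higher, with a median of 0.16. Of the 15 genes 2 were at least 1.5-fold higher, against 10.1% of all compared genes. Bax was 322 CPM in LYZKL and 200 CPM in WTKL, log2 ratios of 0.69 and 0.57. Cell cycle genes were low one by one, with 5 of 18 reaching the level for comparison and a median of 0.26. As a list they summed to 674 CPM in LYZKL and 607 CPM in WTKL members, against 795 and 1093 CPM in B cells. At least 1 such UMI was seen in 83.0% of LYZKL and 79.7% of WTKL members.

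The granule list showed no common direction, with 8 of 18 compared genes higher and 10 lower, 4 each past 1.5-fold, and medians of -0.06 and 0.21 in the full and restricted sets. Lcn2, an iron-siderophore binding protein of secondary granules, was 1975 CPM in LYZKL and 1092 CPM in WTKL, with medians of 3.5 and 1 UMIs per barcode and log2 ratios of 0.85 and 1.21. Chil3, a chitinase-like lectin, was 1843 CPM in LYZKL and 787 CPM in WTKL, log2 ratios of 1.23 and 1.31, and Mmp8, neutrophil collagenase, was 238 and 108 CPM, with log2 ratios of 1.13 and 2.05. Mmp8 rested on few cells, with 66.6% of its UMIs in 10 barcodes in LYZKL and 84.7% in WTKL. Cstdc5, a stefin-type protease inhibitor gene, was 121 CPM in LYZKL and 28.5 CPM in WTKL, where 10 barcodes held all of its UMIs. Saa3, an acute phase protein, had the highest level among the named genes raised in LYZKL, at 12207 CPM against 4818 CPM in WTKL, and was uneven: its median was 1 UMI in LYZKL and 0 in WTKL and 10 barcodes held 57.0% and 70.2% of the UMIs. In the members with at most 2 macrophage-list UMIs Saa3 was 3171 CPM in LYZKL and 1816 CPM in WTKL. B cells held 133 and 116 CPM of Saa3. S100a8 and S100a9, which chose the cells, had log2 ratios of -0.49 and -1.05, and -0.10 and -0.62 in the restricted set.

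Lysosome and lipid genes had 24 of 30 higher in LYZKL, 9 of them at least 1.5-fold, with medians of 0.49 and 0.42 in the full and restricted sets. Grn, a lysosomal growth factor precursor, was 302 CPM in LYZKL and 152 CPM in WTKL, log2 ratios of 0.99 and 1.02, and Lgals3 (galectin 3) had 0.69 and 0.72. Apoe was 377 CPM in LYZKL and 192 CPM in WTKL over all members, and 12.9 and 19.4 CPM in the restricted set. Apoe is itself a gene of the macrophage list, so its low level in the restricted set follows from the limit. NADPH oxidase and redox genes had 14 of 23 higher, 4 of them at least 1.5-fold, with medians of 0.25 and 0.32; Cybb, the oxidase's catalytic subunit, was 1054 CPM in LYZKL and 653 CPM in WTKL, and 90.1 and 63.2 CPM in the restricted set. Gsr, glutathione reductase, was lower, with log2 ratios of -0.70 and -0.59. Lmna, which encodes lamin A and C, was 158 CPM in LYZKL and 59.4 CPM in WTKL, and Ly6c2, a monocyte surface antigen, was 768 and 314 CPM, and 62.9 and 31.6 CPM in the restricted set. Over all members, 10 barcodes held 70.4% of the Ly6c2 UMIs in LYZKL and 90.2% in WTKL.

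Within a library the members were compared with the other neutrophils as a description, since the rule parts them by some of these genes. Against the remaining neutrophils, 339 of 5139 genes (6.6%) were at least 1.5-fold higher in members in both libraries and 289 (5.62%) lower. Ccl4 was 3557 CPM in LYZKL members, a log2 ratio of 3.07 over the remaining neutrophils, and 2013 CPM in WTKL members, a log2 ratio of 3.18. The rule did not use Ccl4, but members without a Ccl3 UMI held 325 CPM of it in LYZKL and 398 CPM in WTKL. Its ratios are therefore not independent of the selection on Ccl3. Il1rn, Mreg (melanoregulin), Isg15, Isg20 and Acod1, the enzyme that makes itaconate, were higher in both libraries, with log2 ratios between 1.84 and 2.74 except Isg20 in WTKL, at 3.26. Il23a, the p19 subunit of interleukin 23, had log2 ratios of 3.05 in LYZKL and 1.87 in WTKL. The monocyte-type genes Plac8, F13a1 and Vcan were lower in members, with log2 ratios from -2.54 to -1.85. The remaining neutrophils held 1630 CPM of the macrophage list in LYZKL and 1706 CPM in WTKL, against 1296 and 923 CPM in members. Their neutrophil list stood at 6990 and 10570 CPM, against 11226 and 15699 CPM in members. The part of these differences in the ratios was not tested. When both classes were limited to at most 2 macrophage-list UMIs, Ccl4 ratios were 3.62 in LYZKL and 2.78 in WTKL, and Il1rn ratios 1.45 and 1.63.

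Against granule-gene neutrophils, members were higher by at least 1.5-fold in both libraries for 1953 of 5139 genes (38%) and lower for 293 (5.7%); the median log2 ratio over all compared genes was 0.51 in each library. H2-Ab1, Ifi30 and Ms4a6c, genes of antigen-presenting cells, were among the highest by the rule for named genes, and the macrophage list there was 251 CPM in LYZKL granule-gene neutrophils and 271 CPM in WTKL ones, against 1296 and 923 CPM in members. Ccl3 had log2 ratios of 1.496 and 1.48, Cd274 of 0.92 and 0.50 and Il1rn of 0.84 and 1.27 in LYZKL and WTKL. Hcar2 and Chil1 were not lower in granule-gene neutrophils to that degree: Hcar2 ratios were 0.26 and 0.17, and Chil1 ratios were -0.28 and -0.71. Ly6g and Stfa2, a stefin of maturing neutrophils, were lower in members, with log2 ratios of -6.29 and -3.57 in LYZKL and -5.73 and -4.42 in WTKL. The granule list as a whole had a median of -1.25 in LYZKL and -0.71 in WTKL.

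**Figure D5:**
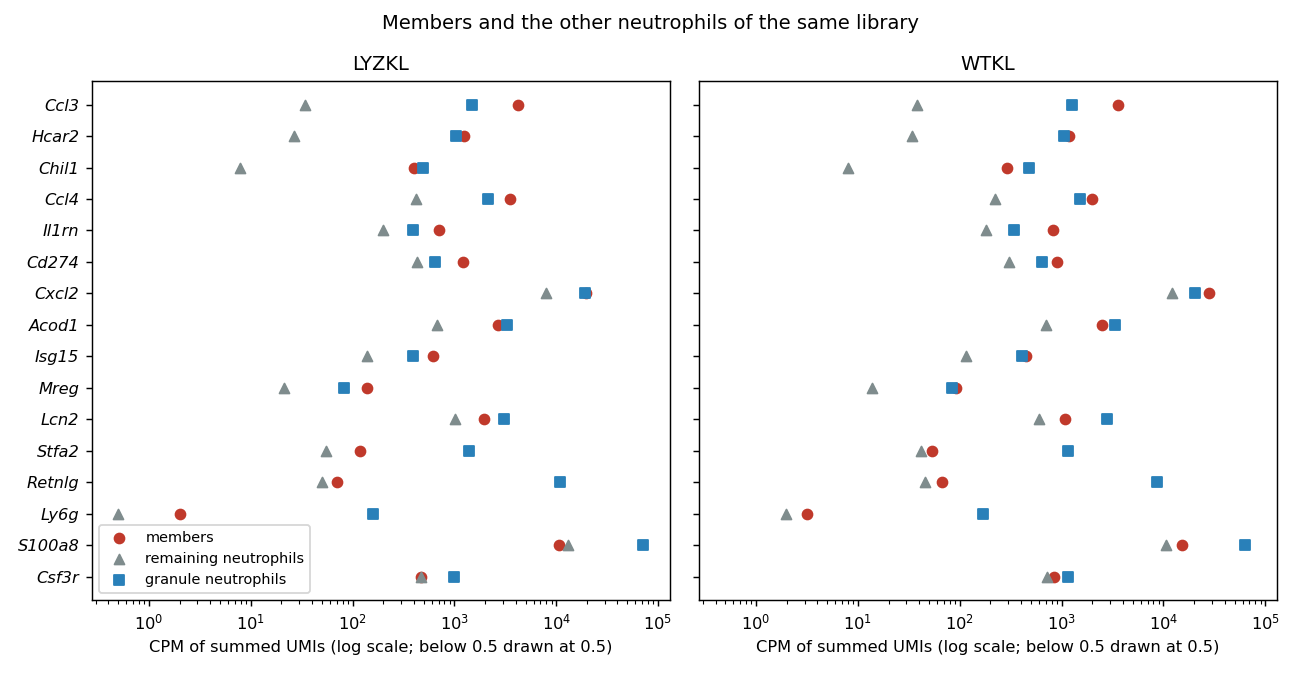
CPM of summed UMIs (log scale) of 16 genes in members (red circles), remaining neutrophils (grey triangles) and granule-gene neutrophils (blue squares), in LYZKL (left) and WTKL (right). Ccl3, Hcar2, Chil1 and Ccl4 were lowest in the remaining neutrophils of both libraries, and Retnlg, Ly6g, Stfa2 and S100a8 were highest in granule-gene neutrophils.

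Members also varied with Ccl3 itself. In LYZKL 252 members had a Ccl3 UMI and 36 had none, and in WTKL 234 had one and 81 had none; median depths lay between 3197.5 and 3640 UMIs in all of these. Ccl4 was 3926 CPM in LYZKL members with Ccl3 and 325 CPM in those without, and 2547 and 398 CPM in WTKL. Il1b was lower in the members with Ccl3, at 7699 CPM against 11982 CPM in LYZKL and 13293 CPM against 16656 CPM in WTKL. G0s2 was lower in LYZKL than in WTKL on both sides of this split: 461 and 2704 CPM with Ccl3, and 331 and 3746 CPM without. Cd274 was 1202 CPM with Ccl3 and 1352 CPM without in LYZKL, and 980 and 708 CPM in WTKL. In the members with at most 2 macrophage-list UMIs Cd274 was 1577 CPM with Ccl3 and 1564 CPM without in LYZKL, and 999 and 786 CPM in WTKL, while Ccl4, Il1b and G0s2 kept the directions given here.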

How the data were processed

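The deposited values are raw UMI counts per gene and barcode in 2 sparse matrices of 32285 genes; per the submitters' processing notes the authors used Cell Ranger 6.1.2 and mm10, and per the labels' protocols the libraries were 10x 3′ v3.0. Filters on cells beyond the matrices are not given in the sources used here. The rule was applied to the deposited counts as they stand, counts were summed per library and scaled to CPM, and ratios have exact conditional binomial intervals, shares exact Clopper-Pearson intervals and ratios of shares Katz log intervals, all at 95%. The ratio calculation was tested on simulated sums that held counting error only, so the test does not cover variation between barcodes. Genes with at least 20 CPM on average and at least 20 UMIs were compared, and 1.5-fold was the size named. No test between groups was possible with 1 library each, and no replicate was left out.

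Named genes were 22 set genes, the 10 highest and 10 lowest ratios by the bound nearest 0, the 12 highest and 8 lowest against other neutrophils and up to 4 per list; Cxcl10, Gbp2, Il1a and Gapdh were added after their values were seen. The members and the 20 gene lists were chosen with earlier results of these data known. Doublets were not removed in the values given; Scrublet in scanpy 1.11.5 marked 1 WTKL barcode when left to set its own threshold, so an alternative took the top 10.8% of LYZKL and 9.61% of WTKL barcodes by score. TMM factors came from edgeR 4.0.16. Other alternatives changed the filters, the rule's limits, the scaling and the minimum level. One part of the hosts' genotype, shared by both groups, is not reported here.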

Additional observations from a re-analysis of the deposited data

How the results depend on the processing

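No paired analysis was possible because each group had 1 library, and no library could be left out. Under 24 alternatives, or 23 for a gene of the rule, the named ratios of G0s2 (-3.16 to -2.12), Ptgs2 (-2.20 to -1.44), Mmp9, Siglecf, Cxcr2, Il1r2, Il1b, Ccl4 (0.60 to 1.37), Cd274 and Lcn2 kept their direction; Hcar2 did so under 20 of 23 and Il1rn under 21 of 24. Of 480 list medians recomputed, 453 stayed within the median lower and upper bounds of their genes. The cause was not tested for any value below.

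Without the Csf3r condition, the ratio of shares was 1.31 of kept barcodes and 1.04 of gated neutrophils, 316 genes were higher, the chemokine median was 0.39, interferon gamma 0.11, NAD 0.022, and the log2 ratios of Ccl5 and Cd38 were -0.59 and -0.15. With at least 50 UMIs of S100a8 and S100a9, added after seeing the data, the ratios of shares were 0.635 and 0.635, the medians of chemokines, TNF and NF-kappaB and lysosome 0.41, 0.19 and 0.23, and Apoe and Ccl5 were at -0.083 and -0.44. With at least 5 UMIs of the selecting genes, the ratio of shares of gated neutrophils was 0.930 and the chemokine median 0.91. Requiring 0 granule UMIs gave medians of -0.32 for interleukin 1, 0.65 for lysosome and -0.42 for survival, and allowing 5 gave 0.95 for chemokines. With no T cell receptor constant UMI the receptor median was -0.00621 and the lysosome median 0.69; with the Cd3 condition dropped, 244 genes were higher and 354 lower and the receptor median was -0.18. With no C1qa, C1qb, C1qc, Adgre1 or Csf1r UMI, 780 genes were higher, the glycolysis and survival medians were -0.61 and -0.018, and Ccl5 and Cxcl1 were at -0.21 and -0.84. With at most 2 macrophage-list UMIs the medians were 0.16 for TNF and NF-kappaB, -0.76 for glycolysis, 0.56 for type I interferon, 0.73 for interferon gamma and -0.34 for immediate early genes, and Apoe, Ccl5 and Cxcl1 were at -0.59, -0.10 and -0.47. Apoe is a gene of that list, so the limit itself acts on its ratio. Thinning to 1000 UMIs gave medians of -0.088 for colony-stimulating factor, 0.16 for lysosome and -0.34 for immediate early genes, and Cxcl1, Ifitm1 and Nos2 were at -0.56, 0.28 and -0.010. The mean of per-cell CPM gave an interferon gamma median of 0.65. With no minimum level, 3267 genes were higher and 3447 lower, and the receptor median was 0.058; with 50 CPM, 220 were higher and 296 lower, and the interleukin 1 median was -0.45.

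Siglecf, Nt5e, Hbegf and Tmem173 had fewer than 120 UMIs per library. The thinned shares of barcodes rest on 287 LYZKL and 315 WTKL members, and the ratios and medians after thinning on the 134 LYZKL and 171 WTKL members that still met the rule.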
